A study of Mus musculus with 21 samples.

Results

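The 42 genes described here encode Wnt ligands, their receptors, inhibitors of the pathway and its nuclear effectors. They were chosen by name as known pathway genes, by a rule that uses no measured value, though with earlier results of these data known. All 42 were found among 20949 curated protein-coding genes on chromosomes 1 to 19 and X of the mouse assembly GRCm38.p6, which is mm10. They comprise 19 Wnt ligands, 12 receptors (10 Frizzled genes with Lrp5 and Lrp6), 6 inhibitors (Sfrp1, Sfrp2, Dkk1, Dkk3, Axin1 and Axin2) and 5 effectors (Ctnnb1, Lef1, Tcf7, Tcf7l1 and Tcf7l2). Chromatin immunoprecipitation with sequencing (ChIP-seq) was done on ganglionic eminences, the ventral forebrain tissue that produces GABAergic neurons, from CD1 mouse embryos of stage E13.5. The antibodies were to CHD4, HDAC1, HDAC2, MBD3, RBBP4 and RBBP7, subunits of the chromatin remodelling and histone deacetylase complex NuRD, with 1 library each and 3 input libraries. Open chromatin was mapped by ATAC-seq in CD1 embryos of stage E12.5, either wild-type (WT) or Dlx1/2 knockout (KO), which lack the homeodomain factors DLX1 and DLX2. There were 3 embryos per genotype in each of 2 fractions: FTpos cells, from the ventricular zone, and FTneg cells, from the subventricular zone and the mantle. Each accessibility list combines the embryos of a genotype, so no list of either assay has a replicate, and no spread between animals can be given.

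Wnt ligands are secreted lipid-modified proteins that bind Frizzled receptors and the coreceptors LRP5 and LRP6. In the canonical branch this stabilises beta-catenin, the product of Ctnnb1, which then acts with TCF and LEF factors at target genes, one of which is Axin2. Secreted frizzled-related proteins and Dickkopf proteins act outside the cell against the ligands or coreceptors, while Axin proteins scaffold the complex that destroys beta-catenin. In the developing forebrain Wnt signals are known mainly as dorsal and midline cues, with Wnt3a and Wnt8b as markers of the cortical hem and medial pallium. RBBP4 and RBBP7 are histone-binding proteins that are also subunits of complexes other than NuRD, among them the Polycomb complex PRC2.

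Sample label and list name disagree for 3 ChIP samples. The sample labelled CHD4 has a list named for HDAC1, the one labelled HDAC1 has a list named for HDAC2, and the one labelled HDAC2 has a list named for CHD4. Lists are called here by the sample label. By the labels, RBBP4 and RBBP7 share an input library, as do CHD4 and MBD3, and HDAC1 and HDAC2. The run prefixes of the list names form the same 3 pairs under the names that the lists carry, and not under the sample labels, which favours the carried names without settling the matter. By the carried names the CHD4-labelled list would be HDAC1, the HDAC1-labelled list HDAC2 and the HDAC2-labelled list CHD4, so values of these 3 lists describe the list and may belong to another protein. No such mismatch affects MBD3, RBBP4 and RBBP7. The ChIP lists held 5517 (HDAC2-labelled) to 29762 peaks (RBBP4). All 9 ventral forebrain genes examined (among them Dlx1, Dlx2, Gsx2 and Gad1) and all 6 cortical genes had a peak of at least 1 list at an end. Over all genes, 42.7% had no list there. None of 5 microglial and none of 6 endothelial and mural genes had a peak at an end. Since ventral and cortical genes both had peaks, these counts cannot tell ventral from cortical tissue. As a check of the genotype, 5 regions more open in WT than in KO FTneg cells lay within 100 kb of the neighbouring genes Dlx1 and Dlx2. In FTpos cells, 6 regions more open in WT lay within 100 kb of each of these genes. Regions more open in KO lay there too, 1 near each gene in FTneg cells and, in FTpos cells, 1 near Dlx1 and 2 near Dlx2, so the regions near these genes did not all go one way.

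RBBP4 was found at the ends of nearly all of the Wnt genes. A peak was counted at a gene end when at least 1 bp lay within 1 kb of either annotated end. By this measure RBBP4 peaks were at 39 of 42 genes (92.9%), where 47.9% of all genes had one. The 3 without were the ligand gene Wnt8a and the scaffold genes Axin1 and Axin2. RBBP7 was at 15 (35.7%, all genes 12.51%), MBD3 at 17 (40.5%, all genes 23.8%) and the HDAC1-labelled list at 17 (40.5%, all genes 28.0%). The CHD4-labelled list was at 24 (57.1%, all genes 45.7%) and the HDAC2-labelled list at 4 (9.52%, all genes 10.0%), a share near that of all genes. All 9 ventral and all 6 cortical genes examined also had RBBP4 at an end, and 44.4% and 66.7% of them had RBBP7. The microglial, endothelial and mural genes had neither. These shares are descriptions of single libraries, and members were not treated as replicates. Kept to peaks with −log10 q at or above 10, RBBP7 was at 4 members and 2.87% of all genes and MBD3 at 10 members and 13.6%. At that setting the CHD4-labelled list was at 14 members and 37.6% of all genes, and the HDAC1-labelled list at 4 members and 8.97%, which puts both near the share of all genes.

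The Wnt genes carried a median of 3 lists at their ends, against 1 over all genes. No list was at the ends of 3 members (7.14%), where 42.7% of all genes had none. The count was 11 without the RBBP4 list, the longest (all genes 48.3%), and 6 with peaks of −log10 q at or above 10 (all genes 49.9%). Peaks of 5 or 6 lists were at the ends of 8 of 42 members (all genes 9.88%): Wnt5b, Wnt7a, Wnt7b, Wnt9a, Fzd1, Fzd2, Fzd8 and Sfrp2. Fzd2 was the member with all 6 (3.0% of all genes had all 6). Kept to peaks with −log10 q at or above 10, the count of 5 or 6 lists was 1 member (all genes 1.53%). Another 8 members (all genes 5.57%) had RBBP4 at their ends and none of the other lists.

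**Figure D1:**
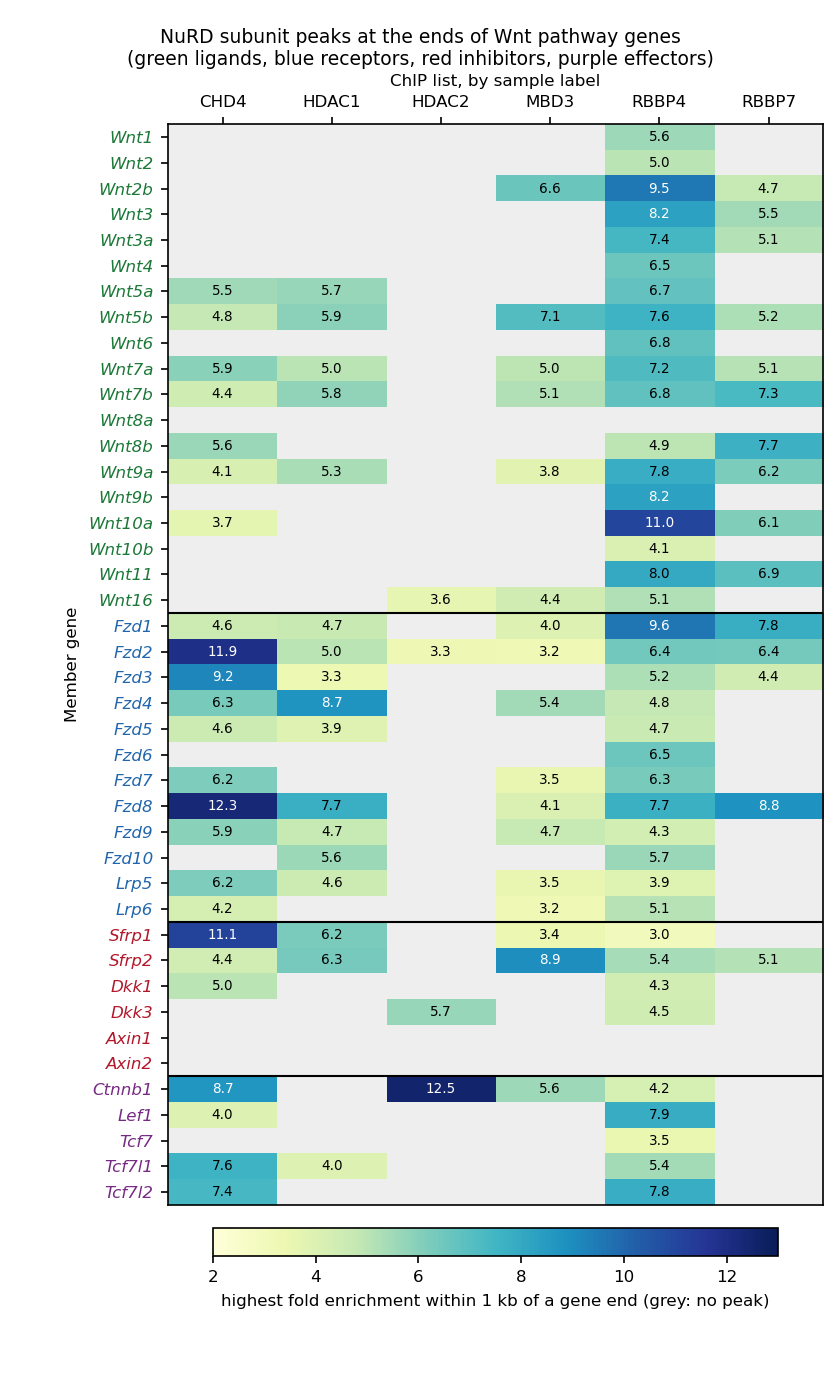
Highest fold enrichment over input of any peak within 1 kb of an end, for each of the 42 genes (rows, grouped by class) in each of the 6 ChIP lists (columns); grey marks no peak. The RBBP4 column is filled for 39 genes, the HDAC2-labelled column for 4.

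The classes differed in which lists they carried. Ligand genes had RBBP4 at 18 of 19 (94.7%, all genes 47.9%) and RBBP7 at 10 of 19 (52.6%, all genes 12.51%). They had the CHD4-labelled list at 7 (36.8%, all genes 45.7%) and the HDAC1-labelled one at 5 (26.3%, all genes 28.0%), neither above its share of all genes. Receptor genes had RBBP4 at 12 of 12, the CHD4-labelled list at 10 (83.3%) and the HDAC1-labelled one at 9 (75.0%). They had MBD3 at 8 (66.7%, ligands 31.6%, all genes 23.8%) and RBBP7 at 4 (33.3%), also above all genes. Effector genes had RBBP4 at 5 of 5 and the CHD4-labelled list at 4, and no RBBP7 peak at an end. Of the 6 inhibitor genes 4 had RBBP4, the secreted Sfrp1, Sfrp2, Dkk1 and Dkk3. Kept to peaks with −log10 q at or above 10, the order of ligands and receptors in RBBP7 was lost, with 2 of 19 ligand genes and 2 of 12 receptor genes (all genes 2.87%). At that setting the HDAC1-labelled list was at 2 receptor genes and 0 ligand genes (all genes 8.97%). MBD3 was at 4 of 12 receptor genes and 4 of 19 ligand genes (all genes 13.6%). The CHD4-labelled list was at 9 receptor genes and 1 ligand gene (all genes 37.6%). The medians of lists per gene, over all peaks, were 4 for receptors and 2 for each of the other classes. Differences between classes were not tested, because genes of a class are not replicates. Most Frizzled genes are short (median 4.59 kb, ligands 22.9 kb), so that windows around both ends cover much of such a gene.

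**Figure D2:**
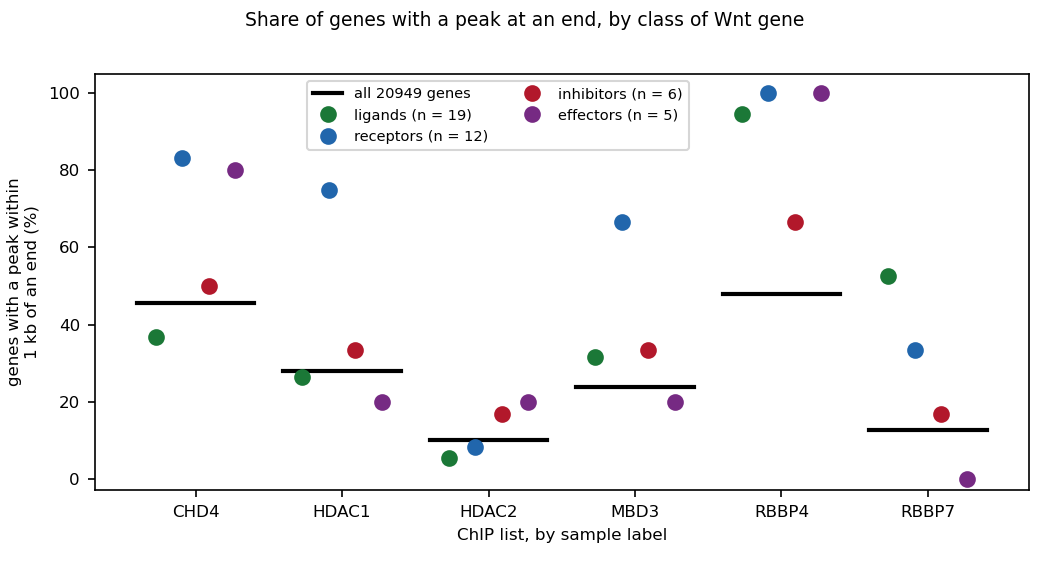
Percentage of genes with a peak within 1 kb of an end, for each class (points) and for all 20949 genes (black bars), by ChIP list. Receptors sit above all genes in the CHD4-labelled, HDAC1-labelled and MBD3 lists (83.3%, 75.0% and 66.7%), ligands in RBBP7 (52.6%); with −log10 q at or above 10, RBBP7 is at 2 genes of each of these classes and the HDAC1-labelled list at 2 receptor genes.

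Among the ligands, 6 had RBBP4 and no other list at their ends: Wnt1, Wnt2, Wnt4, Wnt6, Wnt9b and Wnt10b. Their highest RBBP4 fold enrichment there, a ratio over input from the authors' caller, ran from 4.09 at Wnt10b to 8.24 at Wnt9b. The Wnt9b value belongs to a peak of 2038 bp that it shares with Wnt3, since the annotated bodies of these genes overlap by 1098 bp. RBBP4 was strongest at Wnt10a, with a fold enrichment of 11.0 (percentile 98.5 of the RBBP4 list) near the higher-coordinate end of the gene. The same place carried RBBP7 at 6.1 and the CHD4-labelled list at 3.68. Wnt2b, a ligand of the cortical hem, followed with an RBBP4 fold enrichment of 9.55 over its start, where MBD3 reached 6.6 and RBBP7 4.74. Over all ligands with a peak the median of the highest RBBP4 fold enrichment was 6.96, against 5.13 over all genes with one. For the CHD4-labelled list the order was the other way, with 4.77 at ligands and 6.96 over all genes. These are medians over the 18 and 7 ligand genes with such a peak, and single genes went the other way, as RBBP4 at Wnt10b (4.09), Wnt8b (4.95) and Wnt2 (4.99).

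The 4 ligand genes with 5 lists were Wnt5b, Wnt7a, Wnt7b and Wnt9a. None of them had a peak of the HDAC2-labelled list. At Wnt7a, a ligand expressed by neural progenitors, 1 merged stretch of 2745 bp (chr6:91409250-91411994) held the 5 lists. Its fold enrichments were 5.93 in the CHD4-labelled list, 4.98 in HDAC1-labelled, 4.96 in MBD3, 7.16 in RBBP4 and 5.09 in RBBP7. Wnt7b, its close relative, had a like stretch of 3249 bp at its higher-coordinate end (chr15:85579963-85583211), with values of 4.45 to 7.29 over the same 5 lists. The stretch at Wnt9a was 1266 bp (chr11:59306854-59308119, 3.77 to 7.84). Within its list the RBBP4 peak at Wnt9a was at percentile 91.3 and the CHD4-labelled one at 13.2, so the lists that met there did not rank the place alike. At Wnt5b the peaks of 4 lists ran together, and the RBBP7 peak of 280 bp stood apart, with its summit at −794 bp from the nearest listed start (negative is upstream). Wnt16 was the ligand gene with an HDAC2-labelled peak at an end (3.6), beside MBD3 (4.42) and RBBP4 (5.14). Wnt5a, the main non-canonical ligand, had 3 lists at its ends and 14 peaks of 5 lists in its body. Wnt3, a close relative of Wnt3a, had RBBP4 (8.24) and RBBP7 (5.46) at its start and a second place far inside the gene (chr11:103809016-103810929) with RBBP4 at 10.1, MBD3 at 5.0, RBBP7 at 5.7 and the HDAC2-labelled list at 4.13. Wnt3a had RBBP4 at 7.39 and RBBP7 at 5.1 at an end, and Wnt11 had RBBP4 at 7.96 and RBBP7 at 6.92. These 3 ligand genes thus had RBBP4 and RBBP7 and none of the other lists at their ends. Wnt8a had no peak of any list at an end or in the body.

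Several ligand genes are neighbours. Wnt3 and Wnt9b overlap, Wnt6 and Wnt10a lie 6697 bp apart, Wnt1 and Wnt10b 11651 bp and Wnt3a and Wnt9a 16098 bp. Wnt1 and Wnt10b both had RBBP4 alone at their ends. Wnt9a had 5 lists and Wnt3a had 2 (RBBP4 and RBBP7), and Wnt10a had 3 and Wnt6 had 1. Wnt3 counted 2 and Wnt9b 1, but at 1 shared stretch (chr11:103773179-103775216) that held RBBP4 and RBBP7. Its RBBP7 peak lay within 1 kb of an end of Wnt3 and in the body of Wnt9b, so this difference comes from where the annotated ends lie. Of 314 distinct peaks at an end or in the body of a member, 2 counted for more than 1 member.

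The Frizzled genes held the highest CHD4-labelled values at their ends. The CHD4-labelled list reached 12.3 at Fzd8 (percentile 96.6 of that list) and 11.9 at Fzd2 (percentile 96.1), in peaks of 5566 and 4184 bp that reach past the whole body of Fzd8 and most of that of Fzd2. At Fzd2 a single stretch (chr11:102603299-102607482) held all 6 lists. There the HDAC1-labelled list gave 4.99, the HDAC2-labelled 3.27, MBD3 3.22, RBBP4 6.39 and RBBP7 6.35. Fzd8 had 5 lists in a stretch of 5640 bp (chr18:9211567-9217206), with RBBP7 at 8.83, RBBP4 at 7.68 and MBD3 at 4.05. Fzd4 had the highest HDAC1-labelled value of the members (8.74, percentile 98.1) over its start, and no RBBP7 peak. At Fzd1 RBBP4 reached 9.6 and RBBP7 7.76. Fzd3, a receptor of the planar polarity branch, had the CHD4-labelled list at 9.16, RBBP4 at 5.24, RBBP7 at 4.45 and the HDAC1-labelled list at 3.34. At Fzd5 the 3 lists present had values of 3.86 to 4.66, and at Fzd7 the CHD4-labelled list (6.15) and RBBP4 (6.26) were higher than MBD3 (3.55). The receptor genes with the fewest lists were Fzd6, with an RBBP4 peak of 6.52 alone, and Fzd10, with RBBP4 at 5.65 and the HDAC1-labelled list at 5.6. The coreceptor genes differed by 1 list: Lrp5 had 4 lists at 1 end, with values of 3.51 to 6.16, and Lrp6 had 3, with 3.2 to 5.07. Neither had RBBP7 or the HDAC2-labelled list there.

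Of the secreted inhibitors Sfrp2 had 5 lists in a stretch of 1700 bp over its start (chr3:83765366-83767065). MBD3 was highest among them at 8.94 (percentile 96.3 of the MBD3 list and the highest MBD3 value at an end of any member), with 6.31 in the HDAC1-labelled list, 5.39 in RBBP4, 5.13 in RBBP7 and 4.36 in the CHD4-labelled list. Sfrp1 had 4 lists at an end, with the CHD4-labelled list at 11.1 and RBBP4 at 3.0, the lowest RBBP4 value at an end of any member. Inside Sfrp1 another stretch (chr8:23424209-23425835) had RBBP7 at 11.3 and RBBP4 at 7.42, so that the lists were ordered differently at the end and within the gene. Dkk1 had the CHD4-labelled list (4.99) and RBBP4 (4.33), and Dkk3 the HDAC2-labelled list (5.69) and RBBP4 (4.46). Axin1 had no peak at its ends and 2 in its body, 8.02 in the CHD4-labelled list and 3.8 in RBBP4.

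Axin2 counted as a gene without peaks at its ends, but it carried all 6 lists at the start given for it in the RefSeq promoter table. That start (chr11:108920349) lies inside the annotated body (108917828 to 108950783), more than 1 kb from its lower end. A stretch of 3611 bp there (chr11:108919730-108923340) held RBBP7 at 9.55, RBBP4 at 8.98, the CHD4-labelled list at 8.42, the HDAC1-labelled list at 7.21, MBD3 at 6.6 and the HDAC2-labelled list at 5.24. The HDAC2-labelled value of 5.24 belongs to a peak with its summit 936 bp downstream of the listed start. The HDAC2-labelled peak over the start itself had 2.68 (percentile 1.02 of its list). This stretch and the stretch at Fzd2 were the merged regions of all 6 lists at members (2 of 42 members, all genes 4.82%). With windows of 1 kb around listed starts in place of annotated ends, 5 of the 29 members with a listed start changed their number of lists. Members without a listed start kept their annotated ends and could not change. Axin2 went from 0 to 6, Lef1 from 2 to 4, Wnt2 from 1 to 2 and Wnt11 from 2 to 3, and Wnt8b went from 3 to 0.

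Among the nuclear effectors Ctnnb1, which encodes beta-catenin, stood high in the HDAC2-labelled list. Its peak of 603 bp (chr9:120932838-120933440) had a fold enrichment of 12.49 and rank 6 among 5517 peaks of that list. Its summit lay at −274 bp from the nearest listed start. The peaks that overlap it had values of 3.46 in MBD3, 3.83 in RBBP4 and 8.68 in the CHD4-labelled list, whose peak reaches to 120935902 and has its summit at 120934780. Higher peaks of MBD3 (5.57) and RBBP4 (4.21) lay beside it, under the CHD4-labelled peak. RBBP7 and the HDAC1-labelled list had no peak at an end or in the body. Tcf7 had a single peak, of RBBP4, at 3.46 (percentile 9.2). Lef1 had RBBP4 at 7.85 and the CHD4-labelled list at 3.97 at its annotated end, and 4 lists in the stretch that runs from there to a later listed start at 131112791 (chr3:131110205-131112788). Tcf7l1 and Tcf7l2 had RBBP4 at 5.4 and 7.83 at an end and the CHD4-labelled list at 7.62 and 7.37.

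Inside the gene bodies RBBP4 was at 41 of 42 members (97.6%, all genes 52.5%), Wnt8a being the exception. MBD3 was in 26 (61.9%, all genes 27.6%), the CHD4-labelled list in 25 (59.5%, all genes 49.9%), RBBP7 in 22 (52.4%, all genes 20.2%), the HDAC1-labelled list in 20 (47.6%, all genes 30.4%) and the HDAC2-labelled list in 8 (all genes 11.9%). No list was in the body of 1 member, Wnt8a (2.38%, all genes 37.0%). Members were longer than genes in general (median 26.9 against 17.8 kb), and longer genes have more room for a peak. The part of length in these counts was not tested. A single merged region of 5 or 6 lists was in the body or within 1 kb of 8 members (all genes 13.1%). The peaks fell into 122 merged regions, of which 62 held 1 list and 41 held RBBP4 alone. RBBP4 is the longest list, and the matching shares over all 38820 merged regions were not counted. These counts are therefore no trait of the members.

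Tcf7l2, the longest member (192 kb), had the most peaks in its body, 34 in all. They comprised 13 of RBBP4, 12 of the CHD4-labelled list, 4 of RBBP7, 2 each of MBD3 and the HDAC1-labelled list and 1 of the HDAC2-labelled list. They lay in groups, 1 within about the first 9 kb after the first listed start and another around the second listed start (chr19:55895321). The highest was an RBBP4 peak of 10.7 (percentile 98.2 of that list, chr19:55896518-55897244), 1449 bp downstream of the second start, with the CHD4-labelled list at 9.31, the HDAC1-labelled at 6.13 and MBD3 at 3.65 in the same merged region. Axin2 followed with 18 peaks of 6 lists in 33.0 kb, and Tcf7l1 and Wnt7b with 16 each. In Tcf7l1 the highest values lay far inside the gene, where RBBP7 reached 13.4 (percentile 97.7, chr6:72666952-72667560) some 121792 bp downstream of the listed start.

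**Figure D3:**
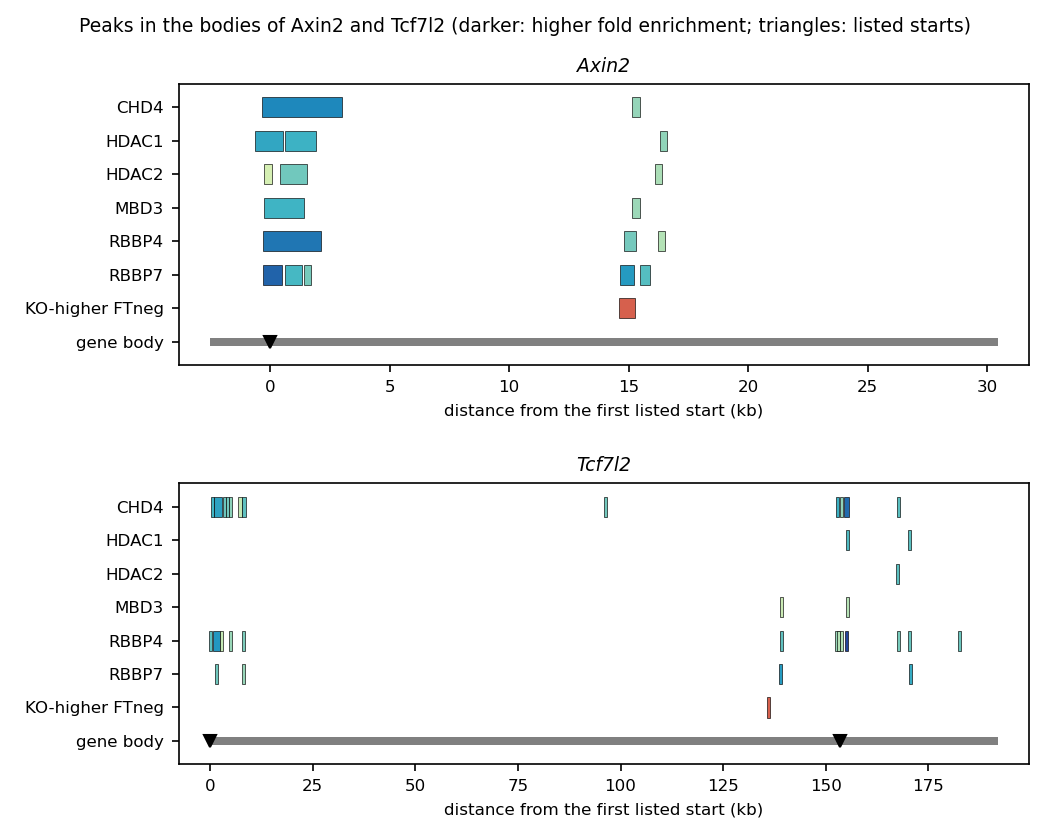
Positions of ChIP peaks (coloured by fold enrichment), regions more open in KO FTneg cells (red) and listed starts (triangles) in Axin2 and Tcf7l2, as distance in kb from the first listed start. All 6 lists overlap the start of Axin2, the HDAC2-labelled one with a peak of only 2.68. The KO-higher region overlaps peaks in Axin2 and none in Tcf7l2.

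The promoter table of RefSeq (GRCm38.p6, 250 bases before to 50 after a start) held 38 windows for 29 of the 42 members. Members without a window included Fzd8, Fzd2 and Sfrp1, which had the highest CHD4-labelled values at an end (12.3, 11.9 and 11.1). The shares by window thus leave out part of the members that carried this list. The members' windows were rich in the dinucleotide CpG, with a median of 28 per window against 14 over 20392 windows of all genes, and a median C and G content of 70.0% against 57.0%. RBBP4 peaks overlapped 34 of the 38 windows (89.5%, all genes 43.1%). Of windows with at least 20 CpG, RBBP4 was at 26 of 26 members' windows and at 75.5% of all. The CHD4-labelled list was at 11 of the 26 (42.3%) and at 73.4% of all such windows, and the HDAC1-labelled list at 6 (23.1%) and 40.1%. For the ligands the gap was wider, with RBBP4 at 13 of 13 windows of at least 20 CpG and the CHD4-labelled list at 2 of 13 (15.4%). Within 1 kb of an end, the CHD4-labelled list was at 7 of 19 ligand genes (36.8%, all genes 45.7%). Of these, Wnt5a, Wnt7b and Wnt10a (5.48, 4.45 and 3.68) had no window. At Wnt5b and Wnt9a the CHD4-labelled peak at an end lay outside the 300 bp windows. RBBP7 (15.4% against 16.1%), MBD3 (42.3% against 37.8%) and the HDAC2-labelled list (11.5% against 12.8%) were close to their shares over all such windows. Windows of 1 gene can overlap each other, and these differences were not tested. The 4 windows without any list had 4 to 7 CpG: 2 internal starts of Wnt5b, 1 of Lef1 and the start of Wnt8b.

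**Figure D4:**
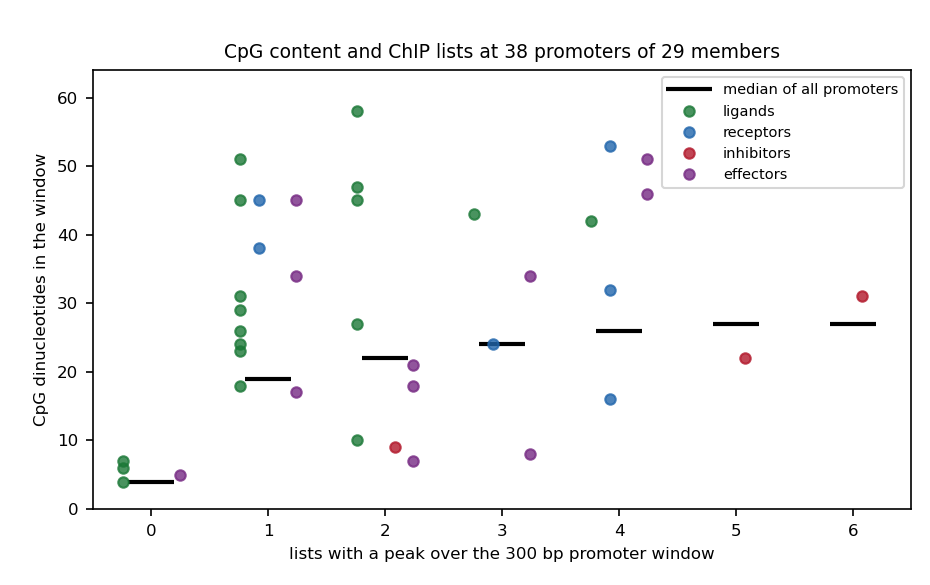
Number of CpG dinucleotides in each 300 bp promoter window of a member (points, by class) against the number of ChIP lists with a peak over it; black bars are the medians of all windows with that number of lists. Ligand windows with 1 list reach 51 CpG, and the 4 windows with no list have 4 to 7.

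The following 5 windows are shown because they span the range from all 6 lists to none. Each is printed 5′ to 3′ on the strand of its gene, in lower case, with each CG dinucleotide and each TAATTA in capitals. Axin2 (chr11:108920099-108920398, plus strand, 31 CpG) carried 6 lists, Sfrp2 (chr3:83766071-83766370, plus strand, 22 CpG) carried 5 and Fzd9 (chr5:135250998-135251297, minus strand, 53 CpG) carried 4. The HDAC2-labelled peak over the Axin2 window had a fold enrichment of only 2.68. Wnt4 (chr4:137277385-137277684, plus strand, 51 CpG) carried RBBP4 alone, and Wnt8b (chr19:44493222-44493521, plus strand, 6 CpG) carried none.
Axin2: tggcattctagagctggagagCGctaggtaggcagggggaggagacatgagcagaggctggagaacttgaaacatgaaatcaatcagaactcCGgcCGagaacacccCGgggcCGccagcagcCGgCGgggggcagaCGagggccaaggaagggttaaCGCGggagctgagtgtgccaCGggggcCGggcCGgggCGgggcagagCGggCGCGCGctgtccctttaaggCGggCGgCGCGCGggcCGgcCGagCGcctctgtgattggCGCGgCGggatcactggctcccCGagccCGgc
Sfrp2: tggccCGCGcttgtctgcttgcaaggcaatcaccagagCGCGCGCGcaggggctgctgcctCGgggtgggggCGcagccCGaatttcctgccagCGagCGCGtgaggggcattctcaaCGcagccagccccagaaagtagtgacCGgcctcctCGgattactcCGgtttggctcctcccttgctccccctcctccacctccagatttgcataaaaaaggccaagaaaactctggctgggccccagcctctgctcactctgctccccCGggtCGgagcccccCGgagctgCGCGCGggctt
Fzd9: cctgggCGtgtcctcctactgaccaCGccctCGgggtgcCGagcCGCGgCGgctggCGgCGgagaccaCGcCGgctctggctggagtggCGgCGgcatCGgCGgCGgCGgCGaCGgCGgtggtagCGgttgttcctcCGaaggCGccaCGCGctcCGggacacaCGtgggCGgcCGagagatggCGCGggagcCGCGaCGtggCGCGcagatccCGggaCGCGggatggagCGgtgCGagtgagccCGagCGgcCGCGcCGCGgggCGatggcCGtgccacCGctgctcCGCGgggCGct
Wnt4: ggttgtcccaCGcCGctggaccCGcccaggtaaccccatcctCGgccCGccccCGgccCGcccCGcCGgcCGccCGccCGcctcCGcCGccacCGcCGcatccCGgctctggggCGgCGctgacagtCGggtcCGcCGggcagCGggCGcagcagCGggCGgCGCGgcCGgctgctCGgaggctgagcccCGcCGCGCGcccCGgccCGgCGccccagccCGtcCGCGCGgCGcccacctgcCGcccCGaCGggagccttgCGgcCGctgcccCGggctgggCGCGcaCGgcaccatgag
Wnt8b: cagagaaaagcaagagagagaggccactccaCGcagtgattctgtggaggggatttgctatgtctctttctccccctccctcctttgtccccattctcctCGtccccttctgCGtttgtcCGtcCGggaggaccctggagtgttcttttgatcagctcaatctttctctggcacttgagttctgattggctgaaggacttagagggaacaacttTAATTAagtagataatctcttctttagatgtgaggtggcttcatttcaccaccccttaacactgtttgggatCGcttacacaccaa
Wnt4 and Wnt8b differ plainly in the number of capitals, and Wnt4 carried RBBP4 alone where Wnt8b carried no list. Fzd9 and Wnt4 have nearly the same number of CpG, and Fzd9 carried the CHD4-labelled, HDAC1-labelled and MBD3 lists beside RBBP4.

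Letters of 2 motifs were searched in these windows on both strands. TAATTA, a core recognised by homeodomain factors such as the DLX proteins, was in 1 of 38 members' windows (2.63%), that of Wnt8b, and in 4.45% of all windows. CTTTGA, a core of TCF and LEF sites, was in 5 (13.2%) and in 14.3% of all windows. The 5 were windows of Dkk1, Fzd1, Lef1, Wnt5b and Wnt11. None of the members' windows held both. Both shares were near those of all windows.

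In KO embryos, regions that were more open than in WT lay in or near 6 of the 42 genes in FTneg cells. These were Wnt7b, Wnt8b, Fzd5, Fzd9, Axin2 and Tcf7l2 (14.3%, where 5.47% of all genes had such a region in the body or within 100 kb). Of the other 3 lists none had a region within 100 kb of a member: WT-higher FTneg (0.31% of all genes), KO-higher FTpos (0.21%) and WT-higher FTpos (0.205%). These shares are so low that 0 of 42 shows no difference from all genes. The 6 regions were of modest size within their list, with areas (the area under −log10 p that the authors' caller gives) of 546 to 1092 and ranks of 122 to 613 of 727. With an area of at least 1000, 1 member remained, Fzd5 (1.08% of all genes). No test over embryos could be made from lists that combine them.

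Wnt8b, the marker of the medial pallium, had a KO-higher region 581 bp past its 3′ end (chr19:44514854-44515453, area 797). The region overlapped RBBP7 at 7.65, the CHD4-labelled list at 5.64 and RBBP4 at 4.95, the same peaks that had counted at an end of the gene. No list was within 1 kb of the start of Wnt8b, so its peaks at an end were all on the side of this region. Wnt7b had a KO-higher region 71132 bp from its body and nearest to it of all genes (chr15:85652953-85653770, area 852), with RBBP7 at 6.04, RBBP4 at 4.56, MBD3 at 4.01 and the HDAC2-labelled list at 3.13.

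The receptor gene Fzd9 had a region 2611 bp upstream of its body (chr5:135253658-135254045, area 546) that overlapped an RBBP7 peak of 5.54 and no other list. The 4 lists over the start of Fzd9 did not include RBBP7, so the start and the upstream region carried different lists. The region near Fzd5 (chr1:64720872-64721453, area 1092) lay 9105 bp beyond its 3′ end, inside the neighbouring gene Ccnyl1, and overlapped no list.

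Both regions inside members lay well away from the listed starts (2 members, 4 other pathway genes and 1.43% of all genes had a KO-higher FTneg region in the body). In Axin2 the region (chr11:108934925-108935602, area 684) overlapped RBBP7 at 7.73, RBBP4 at 5.16, the CHD4-labelled list at 4.39 and MBD3 at 4.26, all weaker than at the start of the gene. In Tcf7l2 the region (chr19:55877523-55878053, area 572) overlapped no list. The nearest peaks to it in that gene were those of RBBP7, RBBP4 and MBD3 from 55880477 onwards. Of the 6 regions 4 carried at least 1 subunit list, RBBP7 among them each time. Of all 727 KO-higher FTneg regions 71.3% overlapped a list and 43.3% overlapped RBBP7, and no difference from these shares can be read from 6 regions.

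Just outside the limit of 100 kb, a KO-higher FTneg region 112253 bp from Sfrp1 (chr8:23561885-23562304, area 667) overlapped all 6 lists, with RBBP7 at 12.3 and RBBP4 at 9.81. Zmat4 was nearer to it, at 85022 bp. Others lay 165429 bp from Fzd7, inside Cdk15, and 187545 bp from Wnt2, inside St7. Just inside the limit was Wnt7b. With a limit of 50 kb the count was 5 (all genes 3.41%), and with 200 kb it was 9 (all genes 9.54%).

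The remaining pathway was described with 50 other genes of Wnt secretion, R-spondin signalling, antagonism, the cytoplasmic complex, the non-canonical branch and nuclear cofactors. RBBP4 was at the ends of 45 (90.0%), the CHD4-labelled list at 35, the HDAC1-labelled at 25, MBD3 at 23, RBBP7 at 14 (28.0%) and the HDAC2-labelled at 10. Each list was thus above its share of all genes here, and the high share of RBBP4 was not limited to the 42 members. No list was at the ends of Rnf43, a ligase that removes Frizzled receptors, and of Dkk4 (4.0%, all genes 42.7%). All 6 lists were at the ends of 4 genes (8.0%, all genes 3.0%). These were Lgr4, an R-spondin receptor, Nkd1, a feedback inhibitor, Gsk3b, the kinase of the destruction complex, and Tle4, a corepressor partner of TCF factors. KO-higher FTneg regions lay in or within 100 kb of 5 of the 50 (10.0%, all genes 5.47%): Lgr5, Frzb, Celsr2, Tle1 and Tle4. Tle1 and Tle4 had 2 each. The larger region of Tle1 (area 2168, rank 9 of 727) lay 32707 bp from its body and overlapped RBBP4 alone, at 5.13. The smaller region of Tle4 (area 560) lay next to the larger one. It overlapped 5 lists, all with the same fold enrichments as at the larger one, so the 2 are not separate places. Inside Tle1 a region (area 828) overlapped all 6 lists with MBD3 at 15.4, and inside Tle4 a region (area 885) overlapped all 6 with RBBP4 at 9.17. Frzb, a secreted antagonist, held a region (area 553) with RBBP7 at 11.4 and MBD3 at 4.32, and Lgr5 one (area 657) with RBBP4 at 5.8 and the HDAC2-labelled list at 4.23. That near Celsr2 (area 965) lay inside Sars.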

How the data were processed

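ChIP-seq of 6 NuRD subunits (1 library each) and ATAC-seq of WT and KO embryos (3 per genotype and fraction) gave 6 and 4 deposited lists of regions. The submitters' processing notes name mm10 as build and, as tools, Genrich, deepTools, BWA, MACS2 2.2.7.1 and SAMtools 1.10. Which settings were used is not given in the sources used here. In the deposited ChIP lists the fold enrichment is a ratio over input and −log10 p and −log10 q are per peak, all by the authors' caller. In the deposited accessibility lists the score is the area under −log10 p, at least 500 per the list names. Depths are unknown, since counts were not used here.

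Python 3.11.15 with pandas 2.3.3 was used. Genes were protein-coding RefSeq genes of GRCm38.p6 with a curated transcript (20949 of 21627). Overlap was at least 1 bp; the lookup was tested on simulated data. Strand and starts came from the RefSeq promoter table, where 29 members had an entry. Peaks of different lists were merged where they overlapped. Members and gene lists were chosen with earlier results of these data known; the limit of 20 CpG and the motifs were set after the files had been opened. Named with values were members with 5 or 6 lists or none at their ends, those with an accessibility region, those with most peaks in the body and the 3 highest per list; others were named as examples of their class after their values were seen. 1 marker gene is not reported here. No test was made, as no list has a replicate. Alternatives were stricter peaks, summits in place of overlap, other windows, the start end alone, each list left out, larger areas, nearest genes and, added after seeing the data, listed starts.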

Additional observations from a re-analysis of the deposited data

How the results depend on the processing

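Of 92 values under alternative settings, 74 stayed within 1.5 times the main count. With a −log10 q of at least 10, members with a peak at an end (share of all genes in parentheses) numbered 14 for the CHD4-labelled list (37.6%), 4 for HDAC1-labelled (8.97%), 2 for HDAC2-labelled (2.82%), 10 for MBD3 (13.6%) and 4 for RBBP7 (2.87%), members with no list 6 (49.9%) and those with 5 or 6 lists 1 (1.53%). In the body they numbered 7 for HDAC1-labelled (10.2%), 4 for HDAC2-labelled (3.32%), 15 for MBD3 (16.3%) and 10 for RBBP7 (8.63%). Fewer peaks enter at that setting by construction. With a window of 0.5 kb, 5 members had no list (45.1%) and 5 had 5 or 6 (8.33%), and with the start end alone 5 had no list (43.9%). Leaving out 1 list at a time, members with none of the remaining lists ran from 3 to 11 (11 without RBBP4, 48.3%), and members with all remaining lists but at most 1 from 8 to 13 (13 without the HDAC2-labelled list, 18.1%, or without RBBP7, 17.5%). With an area of at least 1000, 1 member had a KO-higher FTneg region (1.08%). Summits in place of overlap, a window of 2.5 kb and limits of 50 and 200 kb moved no count by more than 1.5 times. The same held for nearest genes, removal of regions with extreme summit values and listed starts, which 29 members had. No paired analysis was possible because each accessibility list combines the embryos, so that embryo numbers shared across groups carry no values; for the same reason no embryo could be left out. Depth behind each list is unknown.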
